A study of Mus musculus with 35 samples.

Results

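The immediate early genes described here were Egr1, Egr2, Ier2, Ier3, Ier5, Atf3, Nr4a1, Dusp1 and Myc, 9 of the 24421 genes in the count files. They were chosen by name, and all 9 passed the filter on low counts in both sets of libraries. Immediate early genes are transcribed within minutes of a growth factor, serum or stress signal, without new protein synthesis, and their mRNAs are short-lived. Many of them carry RNA polymerase II that has started transcription and waits just downstream of the promoter. NELF, a complex of NELFA, NELFB, NELFC/D and NELFE, helps to hold the polymerase at this pause, and the kinase P-TEFb releases it. Polymerase occupancy was not part of the files used here, so the pausing at these 9 genes was not checked, and the values are levels of poly(A) RNA.

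The study asked which functions of NELFB the transcriptome depends on. It used immortalized mouse embryonic fibroblasts (MEFs) of the genotype Nelfb flox/-, which carry 1 conditional and 1 null Nelfb allele and lose the conditional allele after infection with an adenovirus encoding Cre (Ad-Cre). In the populations, cells transduced with an empty vector (EV), with pLenti wild type NELFB (WT), or with the mutants MT194, MT486 or DMT (both mutations together) were collected 7 days after Ad-Cre or after a control adenovirus encoding GFP (Ad-GFP), giving 10 groups of 2 libraries each. MT194 has lost binding to NELFA and NELFC and is mainly cytoplasmic, and MT486 has lost binding to NELFE. A further 15 libraries came from lines isolated as single clones after Ad-Cre, with 3 libraries for each of pLenti WT, MT194 and MT486, and of pBabe WT(N48) and Δ-C60, a C-terminal truncation. The study describes the population libraries as coming from 2 independent experiments. The labels call the libraries biological replicates, and the study's figure legends describe the RNA-seq of clones as coming from 3 independent clones. Reads assigned to genes numbered between 17969149 and 29080007 per population library and between 18413284 and 27816723 per clone library.

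Ectopic and endogenous Nelfb RNA are counted together. In the EV populations, Nelfb was at 46.1 and 39.5 CPM (reads of the gene scaled to a fixed library total) with Ad-GFP and at 7.97 and 5.46 CPM with Ad-Cre, a log2 fold change of -2.67 (SE 0.22, adjusted p = 2.53e-05). With Ad-Cre it was at 75.9 and 60.5 CPM in WT, 103.8 and 118.5 CPM in MT194, 116.0 and 127.9 CPM in MT486, and 168.6 and 208.3 CPM in DMT. All Ad-Cre populations with a construct were thus above both EV-Cre libraries, and DMT was highest. The RNAs of the other subunits differed less: for Nelfa, Nelfcd and Nelfe the log2 fold changes in EV were -0.13 (SE 0.20), 0.13 (SE 0.14) and -0.25 (SE 0.24), and none passed the test. Fibroblast markers were abundant in every library, led by Fn1 in all populations, and summed to between 20700 and 48470 CPM over the 20 populations. The 6 leukocyte markers, of which 2 passed the filter on low counts, summed to 4.28 and 6.49 CPM in EV-GFP and to 7.03 and 9.42 CPM in EV-Cre, with Cd68 the most abundant in these 4 libraries. Between 2 and 4 of the 6 were at 0 reads in each population library. In the other Ad-Cre populations the sums were 4.06 and 5.77 CPM in WT, 3.52 and 5.58 CPM in MT194, 3.98 and 5.77 CPM in MT486, and 5.54 and 8.13 CPM in DMT. Both EV-Cre sums were thus above those of the same replicate in every other group. Neither of the 2 markers was called by edgeR for Ad-Cre in EV or between EV-Cre and another Ad-Cre group. With the replicate number as a block in the fit, neither was called for Ad-Cre in EV, where 9.74% of all genes were. With this block both were called lower in WT-Cre, MT194-Cre and MT486-Cre than in EV-Cre, where 23.0%, 6.22% and 8.95% of all genes were called. DESeq2 called 1 of the 2 in MT194-Cre and in MT486-Cre against EV-Cre, where it called 1.45% and 2.89% of all genes. The part of the leukocyte markers in the results was not tested. In bulk RNA, fewer cells of a type and less RNA per cell cannot be told apart.

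The promoters of 6 of the 9 genes are in the RefSeq promoter table (build GRCm38.p6); Egr1, Ier2 and Myc had no entry and were not searched. The stretches from 200 to 51 bases before the annotated start are shown for the 5 genes with an entry that rose in EV cells. Capitals mark matches to any of 4 motifs or to their reverse complements. One is the CRE, to which CREB and ATF factors bind, spelled TGACGTCA. Its shorter core, TGACG, is the next. The GC box, to which SP1 binds, is spelled GGGCGG. The E-box, to which MYC with MAX binds, is spelled CACGTG. A match that crosses the end of the stretch is cut there.
Dusp1, chr17:26508523-26508672, minus strand: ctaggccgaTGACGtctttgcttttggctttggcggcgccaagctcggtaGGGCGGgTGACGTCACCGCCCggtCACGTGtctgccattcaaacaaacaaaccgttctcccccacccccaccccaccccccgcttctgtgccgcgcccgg
Nr4a1, chr15:101266646-101266795, plus strand: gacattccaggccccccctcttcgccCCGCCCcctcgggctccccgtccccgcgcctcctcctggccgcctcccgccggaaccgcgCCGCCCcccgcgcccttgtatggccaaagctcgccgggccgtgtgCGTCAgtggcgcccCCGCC
Atf3, chr1:191183384-191183533, minus strand: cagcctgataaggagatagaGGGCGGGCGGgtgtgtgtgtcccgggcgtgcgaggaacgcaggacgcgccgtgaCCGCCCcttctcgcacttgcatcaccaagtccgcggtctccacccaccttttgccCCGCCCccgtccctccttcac
Ier5, chr1:155099687-155099836, minus strand: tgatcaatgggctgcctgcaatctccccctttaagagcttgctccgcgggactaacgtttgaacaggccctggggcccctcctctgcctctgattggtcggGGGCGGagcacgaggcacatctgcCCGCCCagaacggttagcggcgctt
Ier3, chr17:35821513-35821662, plus strand: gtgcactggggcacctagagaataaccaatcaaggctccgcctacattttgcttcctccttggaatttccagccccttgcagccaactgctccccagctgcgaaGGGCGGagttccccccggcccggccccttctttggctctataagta

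The CRE was found within 250 bases of the start in Dusp1 alone, from 143 to 136 bases before it, with a GC box abutting it on the side of the start. The letters TGACGTCA occurred in that window in 1.55% of the 32851 promoters in the table. The shorter core, which also lies inside the whole CRE, occurred in 17.8% of them and was present in Dusp1, in Nr4a1 (4 matches), in Atf3 (from 7 to 3 bases before the start) and in 3 of the 5 entries of Egr2. The E-box, in 6.02% of all promoters, was found in Dusp1 and in 1 entry of Egr2. GC boxes occurred in 32.7% of all promoters and in all 5 sequences printed here. The CArG box, to which SRF binds, was found in 4 of the 5 Egr2 entries and in 1.47% of all promoters. TATAAA and the AP-1 motif TGANTCA, present in 12.4% and 6.75% of all promoters, were not found in these letters in the 6 genes. Matches describe the sequence and do not show that a factor binds.

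Per kilobase of the longest CCDS transcript (GENCODE vM21), the genes covered a wide range of levels before deletion. In EV-GFP, Ier3 was highest, at 80.2 ± 5.81 CPM per kb (mean ± SD, n = 2). Myc (27.6 ± 4.54), Egr1 (27.4 ± 11.9), Ier2 (25.1 ± 7.99), Ier5 (21.2 ± 0.441) and Dusp1 (21.0 ± 4.80 CPM per kb) followed, and the libraries of each neighbouring pair in this order overlapped, while those of Myc and Ier5 did not. Atf3 (3.42 ± 0.596) and Nr4a1 (2.94 ± 0.804) were near each other, and Egr2 was lowest, at 0.727 ± 0.0191 CPM per kb. In EV-Cre the order was Ier3 (189.4 ± 30.7 CPM per kb), Myc (92.3 ± 7.24), Ier5 (57.3 ± 3.75), Dusp1 (57.2 ± 3.97), Ier2, Egr1, Atf3, Nr4a1 and Egr2. All later values are CPM normalised by TMM, not divided by length.

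In EV cells 6 of the 9 genes were higher after Ad-Cre than after Ad-GFP and none was lower, by the rule of an adjusted p under 0.05 in edgeR's quasi-likelihood test and an absolute log2 fold change over 1. Of all 13805 genes tested, 6.52% were called in either direction, 3.28% higher and 3.24% lower. The median log2 fold change was 1.31 over the 9 genes and 0.00036 over all genes. In 8 of the 9 both Ad-Cre libraries lay above both Ad-GFP libraries, as they did in 24.5% of all genes tested.

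**Figure D1:**
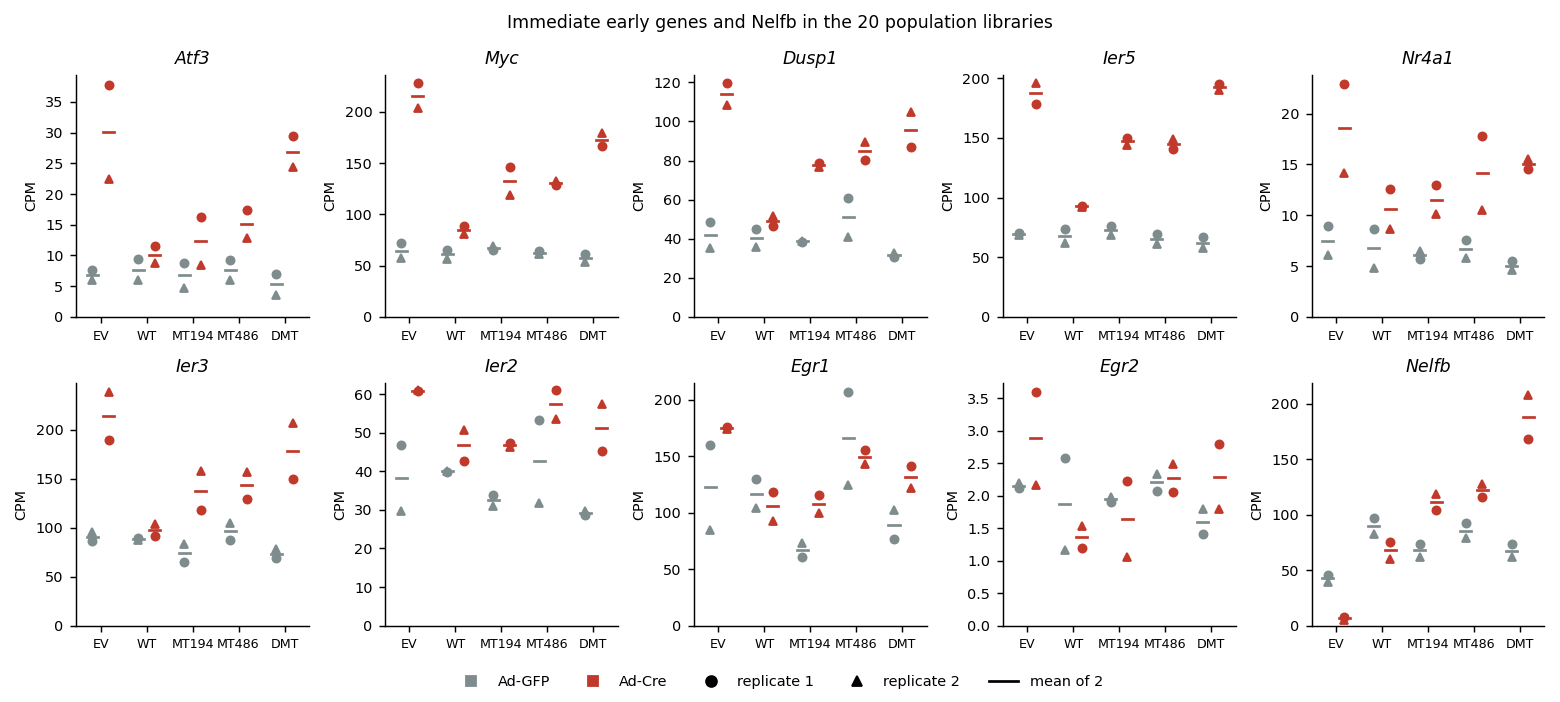
Level in CPM (y axis, from 0) of the 9 genes and of Nelfb in each of the 20 population libraries, by construct (x axis); grey is Ad-GFP, red is Ad-Cre, circles and triangles are replicates 1 and 2, and short lines are means. For Atf3, Myc, Dusp1, Ier5, Nr4a1 and Ier3 the EV-Cre and DMT-Cre points stand above all Ad-GFP points of the same construct, and the WT-Cre points lie closer to their Ad-GFP points.

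Among the transcription factors, Atf3, a stress-induced factor of the ATF/CREB family, showed the largest fold change. It was at 7.62 and 5.95 CPM in EV-GFP and at 37.8 and 22.5 CPM in EV-Cre, a log2 fold change of 2.15 (SE 0.44, adjusted p = 0.00652). The adjusted p was 0.0709 at most when 1 EV library was left out, with log2 fold changes from 1.73 to 2.48, and the call was lost without EV-Cre replicate 1 or EV-GFP replicate 2. Myc, the growth-promoting factor that pairs with MAX, was at 72.1 and 57.1 CPM in EV-GFP and at 227.8 and 203.9 CPM in EV-Cre. Its log2 fold change of 1.74 (SE 0.15, adjusted p = 3.27e-05) held without any 1 library. Nr4a1, an orphan nuclear receptor, was at 8.95 and 6.05 CPM in EV-GFP and at 22.9 and 14.2 CPM in EV-Cre, a log2 fold change of 1.31 (SE 0.34, adjusted p = 0.0243). Its Ad-Cre libraries were both higher than its Ad-GFP libraries, but the spread within each group was wide. The call was lost without EV-Cre replicate 1 or EV-GFP replicate 2 (adjusted p up to 0.183). Within replicates 1 and 2 the log2 ratio of EV-Cre to EV-GFP was 2.30 and 1.91 for Atf3, and 1.35 and 1.22 for Nr4a1. With the replicate number as a block both genes were called in EV, where 9.74% of all genes were called.

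The zinc finger factors Egr1 and Egr2 did not pass the test. Egr1 was at 160.3 and 85.04 CPM in EV-GFP and at 175.6 and 173.9 CPM in EV-Cre (log2 fold change 0.51, SE 0.29, adjusted p = 0.292). The 2 Ad-GFP libraries differed more from each other than replicate 1 did between viruses. Egr2 was at 2.11 and 2.19 CPM in EV-GFP and at 3.60 and 2.17 CPM in EV-Cre (log2 fold change 0.42, SE 0.40, adjusted p = 0.5625), so that the groups overlapped. Egr2 rested on 43 to 80 reads in these libraries.

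Among the genes for signalling proteins, Dusp1, a phosphatase that inactivates MAP kinases, was at 48.5 and 35.0 CPM in EV-GFP and at 119.5 and 108.3 CPM in EV-Cre. This was a log2 fold change of 1.45 (SE 0.20, adjusted p = 0.000572). Dusp1 is overlapped in the annotation by Ergic1 on the other strand, and the counting mode for strand was not given in the sources used here, so a share of its reads could come from that gene. Ier5, an immediate early gene induced by growth and stress signals, was at 70.6 and 68.6 CPM in EV-GFP and at 178.9 and 196.2 CPM in EV-Cre, a log2 fold change of 1.43 (SE 0.13, adjusted p = 3.53e-05). Ier3, a stress-inducible regulator of apoptosis, was at 86.0 and 95.3 CPM in EV-GFP and at 189.7 and 238.8 CPM in EV-Cre, a log2 fold change of 1.24 (SE 0.21, adjusted p = 0.00202). The groups of all 3 genes were well apart, and their calls held without any 1 library. Ier2 was at 46.9 and 29.6 CPM in EV-GFP and at 60.8 and 61.0 CPM in EV-Cre (log2 fold change 0.67, SE 0.23, adjusted p = 0.0805). Its groups did not overlap, yet the difference was not called.

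Cells with WT NELFB showed no called change among the 9 genes by edgeR or by DESeq2, and 2 had an unadjusted p under 0.05. Of all genes tested, 0.0217% were called and 6.22% had an unadjusted p under 0.05. Myc was at 65.5 and 56.6 CPM in WT-GFP and at 88.4 and 81.0 CPM in WT-Cre, a log2 fold change of 0.47 (SE 0.15, adjusted p = 0.524). Ier5 was at 73.4 and 62.0 CPM in WT-GFP and at 92.6 and 92.5 CPM in WT-Cre, a log2 fold change of 0.45 (SE 0.13, adjusted p = 0.461). Neither gene's groups overlapped, as was so for 5 of the 9 genes with Ad-Cre higher, against 18.7% of all genes. With the replicate number as a block, the adjusted p was 0.0123 for Myc and 0.00867 for Ier5, still under the log2 threshold of 1. For the other 7 genes the log2 fold change lay between -0.45 (Egr2, SE 0.42) and 0.65 (Nr4a1, SE 0.34).

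The double mutant DMT showed the same 6 genes called as EV, all higher, where 5.31% of all genes were called and 2.61% were called higher. Atf3 was at 7.02 and 3.60 CPM in DMT-GFP and at 29.5 and 24.4 CPM in DMT-Cre, a log2 fold change of 2.36 (SE 0.44, adjusted p = 0.00472). Ier5 was at 67.0 and 57.5 CPM in DMT-GFP and at 195.4 and 190.1 CPM in DMT-Cre (1.63, SE 0.13, adjusted p = 2.08e-05). With DMT-Cre, Atf3, Ier5 and Nr4a1 lay within the range of the EV-Cre libraries and Ier3 (149.8 and 206.8 CPM) overlapped it. Myc (166.6 and 179.6 CPM) and Dusp1 (86.9 and 104.8 CPM) lay below both EV-Cre libraries. The log2 fold changes of Dusp1, Myc, Nr4a1 and Ier3 were 1.60 (SE 0.20), 1.59 (SE 0.15), 1.59 (SE 0.35) and 1.28 (SE 0.21). The calls of Atf3 and Nr4a1 were lost without DMT-GFP replicate 2, and that of Nr4a1 also without DMT-Cre replicate 2 or DMT-GFP replicate 1 (adjusted p up to 0.0746 for Atf3 and 0.115 for Nr4a1). With the replicate number as a block both were called in DMT, where 8.80% of all genes were called. Ier2 had an adjusted p of 0.0426 with a log2 fold change of 0.81 (SE 0.23), under the threshold of 1, and Egr1 (0.56, SE 0.29) and Egr2 (0.51, SE 0.40) were not called. Nelfb RNA itself was higher with Ad-Cre than with Ad-GFP in DMT (log2 fold change 1.48, SE 0.20, adjusted p = 0.000555). The Ad-Cre libraries also lay above the Ad-GFP libraries in MT194 (Ad-GFP at 74.0 and 62.1 CPM) and MT486 (92.9 and 78.6 CPM). In WT they lay below them (97.5 and 82.8 CPM). Nelfb was not called by edgeR in MT194, MT486 or WT.

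For the 6 genes called in EV, the log2 fold changes in both single mutants lay between those in WT and EV. For Egr1 they did not, at 0.68 (SE 0.29, adjusted p = 0.254) in MT194, the highest of the 5 constructs, and at -0.15 in both MT486 and WT. In MT194, 2 of the 9 genes were called, both higher, with 2.48% of all genes called and 1.20% called higher. Ier5 was at 76.1 and 68.8 CPM in MT194-GFP and at 149.98 and 144.5 CPM in MT194-Cre (log2 fold change 1.02, SE 0.13, adjusted p = 0.000845). Dusp1 was at 38.2 and 39.0 CPM in MT194-GFP and at 78.9 and 76.6 CPM in MT194-Cre (1.01, SE 0.20, adjusted p = 0.0118). Both values lay just over the threshold of 1 on the log2 scale. Myc lay just under it, at 0.99 (SE 0.15, adjusted p = 0.00264), as did Ier3, at 0.89 (SE 0.21, adjusted p = 0.0288). Atf3 (0.86, SE 0.43) and Nr4a1 (0.92, SE 0.35) had adjusted p-values of 0.354 and 0.183. When any 1 MT194 library was left out the Dusp1 call was lost, and the Ier5 call was lost without MT194-Cre replicate 1 or MT194-GFP replicate 2.

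In MT486, 2 of the 9 genes were called, both higher, with 1.46% of all genes called and 0.732% called higher. Ier5 was at 69.5 and 60.7 CPM in MT486-GFP and at 140.8 and 149.1 CPM in MT486-Cre (log2 fold change 1.15, SE 0.13, adjusted p = 0.000857). Myc was at 64.3 and 61.2 CPM in MT486-GFP and at 129.2 and 132.4 CPM in MT486-Cre (1.06, SE 0.15, adjusted p = 0.00269). For both genes the groups were well apart, and the calls held without any 1 library. Nr4a1 (log2 fold change 1.07, SE 0.35) had an adjusted p of 0.134, and of 0.00159 with the replicate block, which made it the third call, with 4.24% of all genes called. Dusp1 was at 0.73 (SE 0.20, adjusted p = 0.0746), Ier3 at 0.57 (SE 0.21, adjusted p = 0.191) and Atf3 at 0.97 (SE 0.43, adjusted p = 0.317). Egr1 was at 207.4 and 124.7 CPM in MT486-GFP and at 155.9 and 143.0 CPM in MT486-Cre, with the groups overlapping (log2 fold change -0.15, SE 0.29).

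**Figure D2:**
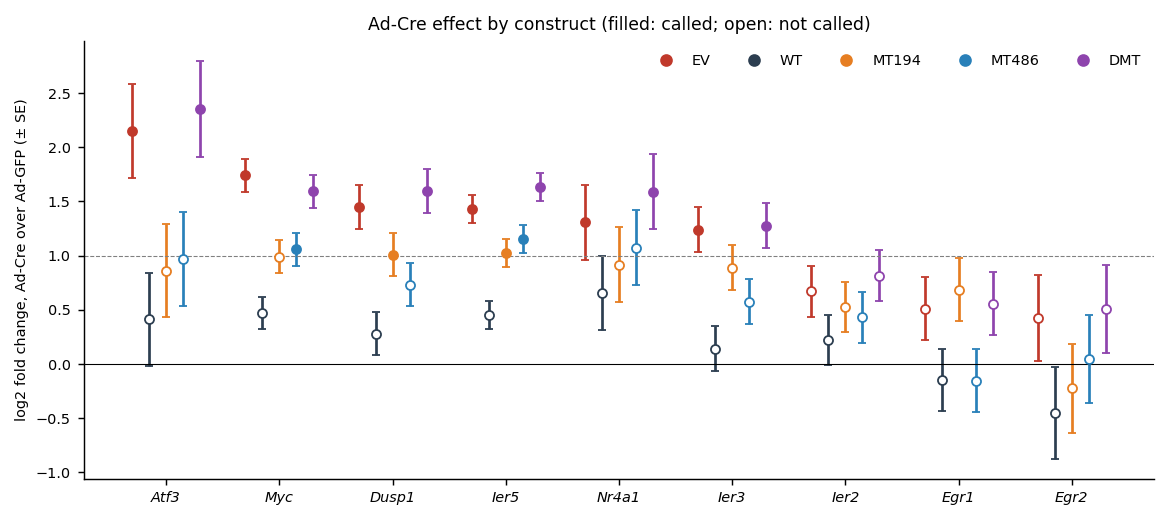
Log2 fold change of Ad-Cre over Ad-GFP (y axis, points with SE bars from edgeR, 2 libraries against 2) for the 9 genes (x axis) by construct (colour); filled points were called, open points were not, and the dashed line marks the threshold of 1. For the 6 genes on the left, EV and DMT are the highest points, WT is the lowest, and MT194 and MT486 lie between.

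Whether these effects of Ad-Cre differed between constructs was tested as an interaction over all genes. The effect in WT was smaller than that in EV for Myc, by 1.27 on the log2 scale (SE 0.21, adjusted p = 0.0195), and for Ier5, by 0.98 (SE 0.18, adjusted p = 0.0299). These were 2 of the 9 genes, with 0.681% of all genes called in either direction and 0.283% in this one. Each of the 8 EV and WT libraries, left out in turn, cost Ier5 its call (adjusted p up to 0.195), and 6 of the 8 cost Myc its call (adjusted p up to 0.138). With the replicate block, 5 genes were called, namely Ier3, Ier5, Atf3, Dusp1 and Myc, where 17.3% of all genes were. For all 9 the difference was negative, and it was -1.74 (SE 0.61, adjusted p = 0.256) for Atf3.

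For MT194 and MT486 none of the 9 interactions with EV was called by edgeR or by DESeq2, with 0.00724% of all genes called in each. For MT194, 2 genes had an unadjusted p under 0.05 (3.22% of all genes), and for MT486, 3 (5.18%). With the replicate block, the effect was smaller than in EV for Atf3 (adjusted p = 0.0163) and Myc (adjusted p = 0.0168) in MT194, and for Atf3 (adjusted p = 0.0152), Myc (adjusted p = 0.0165) and Ier3 (adjusted p = 0.0158) in MT486. The blocked difference was called in 0.992% of all genes for MT194 and in 2.96% for MT486. For DMT no interaction was called, none had an unadjusted p under 0.05 (1.15% of all genes), and DESeq2 and the block called none, with 0.00724% of all genes called both without and with the block. The 95% interval of the difference between DMT and EV ran from -0.62 to 0.32 for Myc and from -0.20 to 0.60 for Ier5, but from -1.14 to 1.55 for Atf3, on the log2 scale. These 4 comparisons share the EV libraries.

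The effect in DMT was also set against the mean of the effects in MT194 and MT486, a comparison added after the data were seen. It was larger in DMT for all 9 genes, by 1.44 (SE 0.53) for Atf3, 0.73 (SE 0.24) for Dusp1 and 0.57 (SE 0.18) for Myc. None of the 9 was called by edgeR (adjusted p = 0.9999 for each) or by DESeq2, though 5 had an unadjusted p under 0.05 (2.17% of all genes), and 0 of all genes tested were called. With the replicate block Atf3 was called (adjusted p = 0.00766), among 0.116% of all genes.

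Levels after Ad-Cre were then compared directly between constructs, with a threshold of 0.5 on the log2 fold change. WT-Cre was lower than EV-Cre in all 9 genes with no overlap between the groups, against 27.2% of all genes. By the test 5 were called lower, where 7.37% of all genes were called in either direction and 3.48% were called lower. These were Atf3 (log2 fold change -1.57, SE 0.42, adjusted p = 0.0403), Myc (-1.35, SE 0.15, adjusted p = 0.000420), Dusp1 (-1.22, SE 0.20, adjusted p = 0.00374), Ier3 (-1.13, SE 0.21, adjusted p = 0.00707) and Ier5 (-1.02, SE 0.13, adjusted p = 0.000837). With the replicate block 8 were called, with Egr1 (adjusted p = 0.0472), Egr2 (adjusted p = 0.0223) and Nr4a1 (adjusted p = 0.00381) added, where 23.0% of all genes were called. The calls of Myc and Ier5 held without any 1 library, that of Dusp1 was lost without WT-Cre replicate 1, that of Ier3 was lost without EV-Cre replicate 2 or either WT-Cre library, and that of Atf3 was lost without any 1 of the 4.

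MT194-Cre and MT486-Cre were lower than EV-Cre in all 9 genes by their fold changes, without overlap in 8 and 6 of them (16.0% and 17.2% of all genes), but edgeR called none, with 0.225% and 0.362% of all genes called. An unadjusted p under 0.05 was reached by 6 genes in MT194-Cre (9.61% of all genes) and by 5 in MT486-Cre (12.1%), and DESeq2 called 1 in each (1.45% and 2.89% of all genes). With the replicate block, MT194-Cre was lower in Ier3, Atf3, Nr4a1 and Myc, and MT486-Cre was lower in Ier3, Atf3 and Myc, where 6.22% and 8.95% of all genes were called. For Myc the blocked log2 differences were -0.70 (adjusted p = 0.000296) and -0.72 (adjusted p = 0.000221). DMT-Cre was below EV-Cre without overlap in 4 of the 9, Egr1, Ier2, Dusp1 and Myc, against 12.3% of all genes, and 8 of the 9 log2 fold changes were negative. None of the 9 was called by edgeR, DESeq2 or the block or had an unadjusted p under 0.05, where 0.00724% of all genes were called, 0.348% were called with the block and 3.24% had an unadjusted p under 0.05. The 95% interval of DMT-Cre over EV-Cre was -0.25 to 0.32 for Ier5, -0.65 to 0.01 for Myc and -1.08 to 0.75 for Atf3 (log2). The interval of Atf3 was the widest of these. In the fit with the replicate block the log2 difference of Atf3 was -0.12 (SE 0.145, adjusted p = 0.752).

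Against WT-Cre, DMT-Cre was higher in Ier5 (log2 fold change 1.06, SE 0.13, adjusted p = 0.00183), Myc (1.03, SE 0.15, adjusted p = 0.00325), Dusp1 (0.97, SE 0.20, adjusted p = 0.0198) and Ier3 (0.87, SE 0.21, adjusted p = 0.0418). That was 4 of the 9, with 2.94% of all genes called and 1.52% called higher. With the block it was 6, with Atf3 (adjusted p = 7.26e-06) and Nr4a1 (adjusted p = 0.0468) added, and 14.2% of all genes. The Ier5 call held without any 1 library, the Myc call was lost without WT-Cre replicate 2, the Ier3 call without DMT-Cre replicate 2 or either WT-Cre library, and the Dusp1 call without any 1 of the 4. MT194-Cre was higher in Ier5 alone (0.67, SE 0.13, adjusted p = 0.0223), with 1.38% of all genes called and 0.558% called higher, and lost this call without any 1 library. With the block it was higher in Ier5, Dusp1 and Myc, with 10.9% of all genes called. MT486-Cre was higher in none by edgeR, with 0.109% of all genes called, 4 of the 9 at an unadjusted p under 0.05 (7.06% of all genes) and 3 called by DESeq2 (1.03%). With the block it was higher in Ier3, Ier5, Atf3, Dusp1 and Myc, with 5.24% of all genes called. These comparisons share the WT-Cre libraries with each other, and those against EV-Cre share the EV-Cre libraries.

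Ectopic NELFB on top of the conditional allele did not come with called differences. The mean of the 4 constructs against EV, all with Ad-GFP, gave log2 fold changes between -0.30 (Nr4a1, SE 0.27) and -0.0019 (Atf3, SE 0.34). None of the 9 was called by edgeR, DESeq2 or the block, or had an unadjusted p under 0.05. Of all genes, 0 were called, 0.0362% were called with the block and 1.04% had an unadjusted p under 0.05. Between the replicate numbers, with group in the fit, Atf3 was lower in replicate 2 (log2 fold change -0.62, SE 0.074, adjusted p = 9.28e-07). It was the only one of the 9 called (Ier3 at 0.26, Nr4a1 at -0.42 and Myc at -0.12 had adjusted p-values of 3.56e-05, 0.000673 and 0.0267 but lay under the threshold of 0.5 on the log2 scale), where 23.0% of all genes were called and 4.03% were called lower. Atf3 was lower in replicate 2 than in replicate 1 in all 10 groups. Between libraries of a group, the SD of log2 CPM was 0.0993 for Ier5 and 0.134 for Myc, below the median of 0.281 over all genes, and 0.476 for Atf3 and 0.424 for Egr2, above it.

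The likeness of profiles was measured as the root mean square (RMS) difference of log2 CPM, centred over the 20 populations, among the 9439 other genes whose mean reached 10 CPM. Myc and Ier5 were each other's nearest gene, with an RMS difference of 0.138 against an RMS of 0.676 and 0.636 around their own means. After Ier5, the genes nearest to Myc were Fam162a (0.158), Plk2 (0.165), a kinase gene of the immediate early class, and Skil (0.181), a repressor of SMAD signalling. After Myc, those nearest to Ier5 were Nexn (0.167), Rrp12 (0.167) and Filip1l (0.170). Dusp1 was nearest to Smad7 (0.159), an inhibitor of TGF-β signalling, and Ier3 was nearest to Bdnf (0.135), a neurotrophin. Nr4a1 was nearest to Csrnp1 (0.201), and Atf3 to Fam162a (0.296) and Maff (0.317). Egr1 was nearest to Irf5 (0.287) and Junb (0.307), and Ier2 to Wdr1 (0.166) and Junb (0.178). Egr2 had no close neighbour among the 9, its nearest being Egr1 at rank 3621. Their RMS difference was 0.458, beside an RMS of 0.421 for Egr2 and 0.452 for Egr1 around their own means. Egr2 rested on 22 to 80 reads in each population library, so its profile is imprecise.

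**Figure D3:**
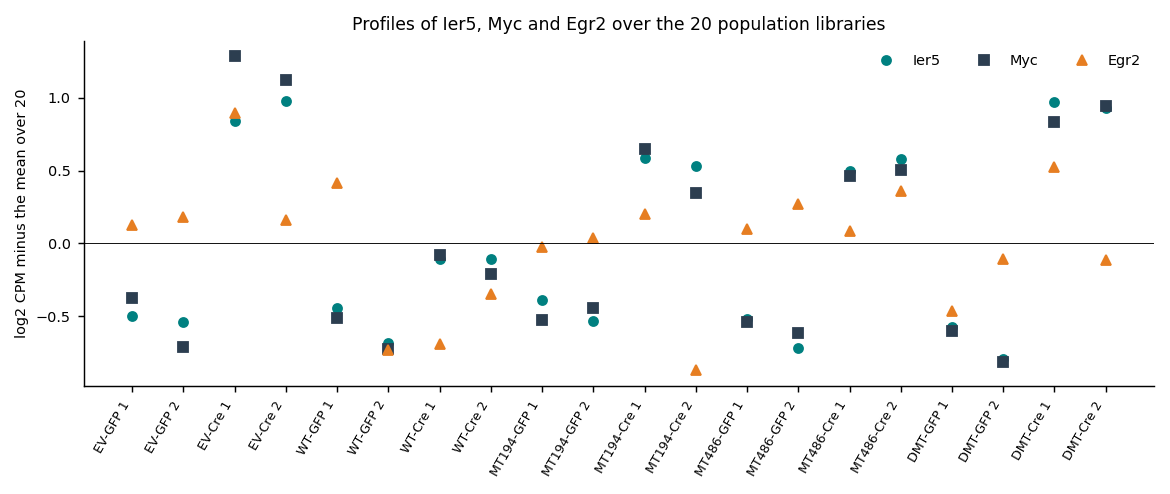
Log2 CPM minus the mean over the 20 population libraries (y axis) for Ier5, Myc and Egr2 in each library (x axis, construct, virus and replicate). Ier5 and Myc lie close together and are highest in EV-Cre and DMT-Cre, while Egr2 lies apart from them in most libraries.

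Other immediate early genes were counted from a list of 44, of which 43 passed the filter. In EV, 18 were called higher and none lower, against 3.28% and 3.24% of all genes, with a median log2 fold change of 0.86, and with each EV library left out in turn between 14 and 17 were called. Those with the smallest adjusted p were Plk2 (log2 fold change 2.16, SE 0.14, adjusted p = 2.67e-06), Tnfaip3, a negative regulator of NF-κB (1.85, SE 0.19, adjusted p = 7.27e-05), Arc (2.70, SE 0.29, adjusted p = 0.000117) and Maff, a small MAF factor (2.42, SE 0.27, adjusted p = 0.000167). The gene of the list with the highest level in EV-Cre was Cyr61, which encodes a secreted matrix protein, at a mean of 277.9 CPM in EV-GFP and 1313 CPM in EV-Cre (2.24, SE 0.59, adjusted p = 0.0255). The number called higher was 16 in DMT, 8 in MT194, 5 in MT486 and 0 in WT, where 2.61%, 1.20%, 0.732% and 0.0217% of all genes were called higher. In WT 8 had an unadjusted p under 0.05, against 6.22% of all genes. DESeq2 called 12 in MT194, 8 in MT486 and 1 in WT, and 3.15%, 2.52% and 0.193% of all genes. The block gave 17 in DMT, 12 in MT194, 10 in MT486 and 1 in WT, where 8.80%, 5.39%, 4.24% and 0.869% of all genes were called. Fos, the partner of JUN in AP-1 and named after its values were seen, was at a mean of 29.8 CPM in EV-GFP and 29.9 CPM in EV-Cre (0.0047, SE 0.74), and Junb at 224.8 and 278.4 CPM (0.31, SE 0.23). Neither was called.

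The kinases and factors of the ERK, SRF and CREB pathways, which induce these genes after a signal, showed none of 32 called in any construct by edgeR, with an unadjusted p under 0.05 for 5 in EV and 6 in DMT, against 26.5% and 24.9% of all genes. DESeq2 and the replicate block each called 1 in EV, against 6.86% and 9.74% of all genes. The most abundant of them, the receptor gene Pdgfra, was at a mean of 2120 CPM in EV-GFP and 932.9 CPM in EV-Cre (log2 fold change -1.18, SE 0.41, adjusted p = 0.0794, or 2.93e-06 with the block). The 5 partners of the EGR and NR4A factors and the 12 genes of the MYC network likewise had none called in EV by edgeR or DESeq2, with an unadjusted p under 0.05 for 0 and 3, against 26.5% of all genes. The block, which called 9.74% of all genes, called 1 of the 5, Rxrg, which was at a mean of 0.197 CPM in EV-GFP and had no reads in EV-Cre (adjusted p = 0.0415), and 0 of the 12. Among 25 targets of MYC, 2 were called higher in EV, where 3.28% of all genes were. These were Nop56, a nucleolar protein gene (log2 fold change 1.33, SE 0.20, adjusted p = 0.00101), and Odc1, the first enzyme of polyamine synthesis (1.09, SE 0.27, adjusted p = 0.0196), and DESeq2 and the block called 3. The median log2 fold change of the 25 was 0.50 in EV, 0.62 in DMT, 0.38 in MT486, 0.35 in MT194 and 0.32 in WT, and 22 of the 25 had a positive value in EV and in WT. By edgeR, Nop56 and Odc1 were also called in DMT, where 2.61% of all genes were called higher. Odc1 alone was called in MT194 (1.06, SE 0.27, adjusted p = 0.0449), where 1.20% were, and neither was called in MT486 or WT. DESeq2 and the block each called 1 of the 25 in MT486, against 2.52% and 4.24% of all genes. Leaving out EV-Cre replicate 1 or EV-GFP replicate 2 left 1 of the 25 called in EV by edgeR.

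Of 12 stress genes around ATF3, 6 were called higher in EV, where 3.28% of all genes were. All are named, more than the 4 that the rule for other genes takes. They were Trib3 (log2 fold change 2.10, SE 0.29, adjusted p = 0.000576), Cdkn1a, an inhibitor of cyclin-dependent kinases (2.24, SE 0.31, adjusted p = 0.000578), Hmox1, the haem oxygenase gene (1.81, SE 0.30, adjusted p = 0.00189), Asns, the asparagine synthetase gene (1.04, SE 0.18, adjusted p = 0.00233), Ppp1r15a (1.54, SE 0.27, adjusted p = 0.00233) and Gdf15 (1.62, SE 0.37, adjusted p = 0.0118). In DMT 5 of the 12 were called higher (2.61% of all genes), and in WT, MT194 and MT486 none by edgeR, with an unadjusted p under 0.05 for 2, 0 and 2, against 6.22%, 16.4% and 14.5% of all genes, and with 1 called by DESeq2 in MT486, against 2.52%. With the block 7 were called in EV, 6 in DMT and 1 in MT486, where 9.74%, 8.80% and 4.24% of all genes were called. For Trib3 the log2 fold change was -0.053 (SE 0.28) in MT194, beside 0.86 (SE 0.43) for Atf3. Among the 12 pausing factors, Nelfb was the only call in EV. The fibroblast marker S100a4 was lower in EV-Cre (log2 fold change -1.47, SE 0.24, adjusted p = 0.00171). It was the only one of 9 tested that was called, where 3.24% of all genes were called lower. Of the 9 markers, 3 had a positive log2 fold change, and the median was -0.16. Their sum was 21920 and 31180 CPM in EV-GFP and 23880 and 37140 CPM in EV-Cre. The part of these markers in the results was not tested.

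In the lines isolated as single clones, Nelfb RNA went against the label in 2 WT libraries. It was at 10.3 and 15.5 CPM in WT libraries 1 and 3 and at 109.4 CPM in WT library 2. In the other groups it lay between 56.3 CPM (WT(N48) library 3) and 247.4 CPM (Δ-C60 library 1). The edgeR log2 fold changes against the WT clones are therefore also given without WT libraries 1 and 3, except for Egr2 in Δ-C60. DESeq2 values and counts of genes without overlap include these 2 libraries. Leaving them out leaves 1 WT library, which is assumed to vary like the libraries of the other groups. A call lost there does not show a smaller difference. CPM values of clones and populations were normalised apart and are not compared. Fibroblast markers summed to 11420, 9782 and 7343 CPM in WT clones and to 25110, 20560 and 15940 CPM in WT(N48). The sums were 11850, 25400 and 13400 CPM in MT194, 13320, 12560 and 14920 CPM in MT486, and 23600, 13990 and 22790 CPM in Δ-C60. For WT(N48) against WT, edgeR called 0 of the 8 markers tested and DESeq2 called 5, against 4.95% of all genes. Their part in the results was not tested.

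**Figure D4:**
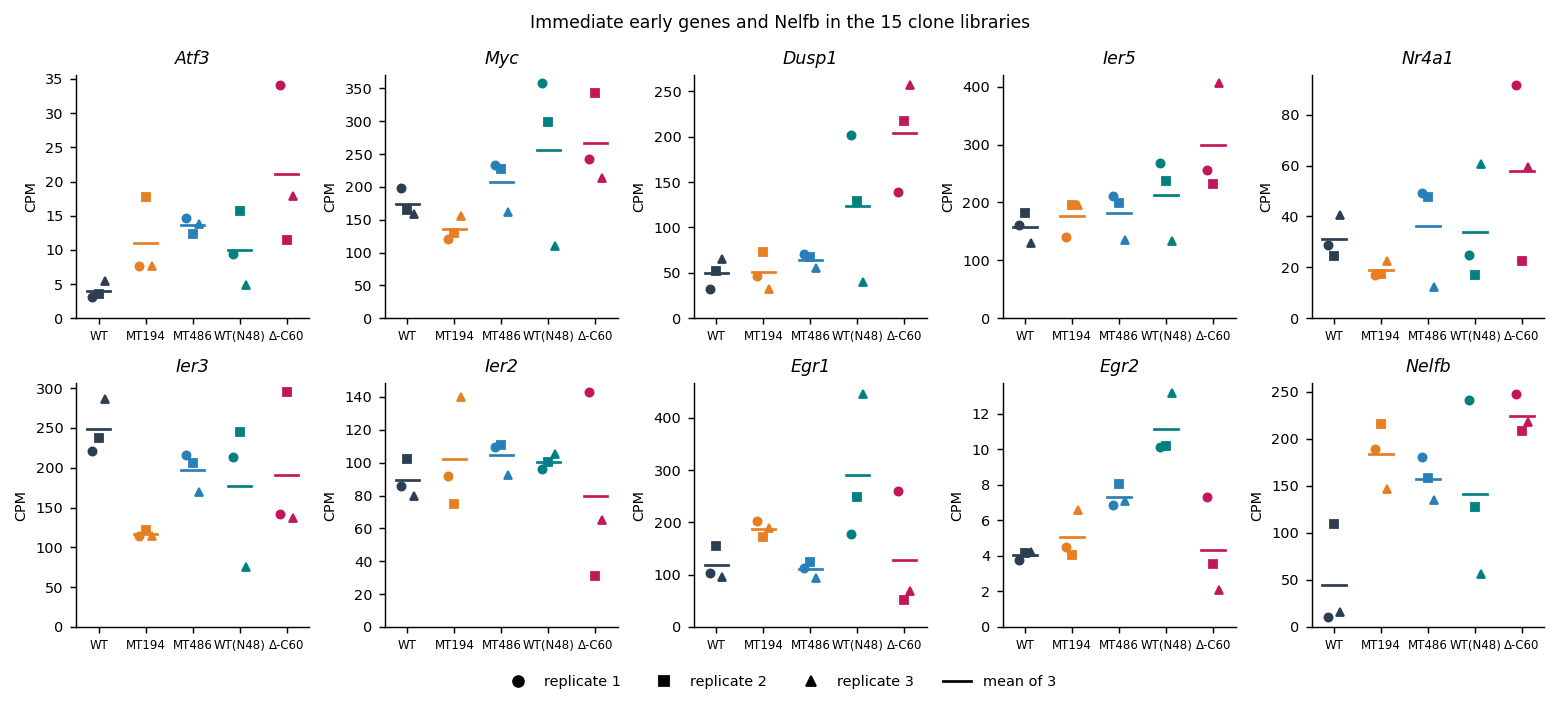
Level in CPM (y axis, from 0) of the 9 genes and of Nelfb in each of the 15 clone libraries, by group (x axis); symbols are replicates 1 to 3 and short lines are means. In WT(N48) and Δ-C60 the libraries of a group are far apart for most genes, and in MT486 they are closer together for most. Nelfb is at 10.3 and 15.5 CPM in 2 of the 3 WT libraries.

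In the 4 clone comparisons edgeR called 0 of the 9 genes, with a threshold of 1 on the log2 fold change. Of the 13223 genes tested, 1.47% were called for MT194 against WT, 1.47% for WT(N48) against WT, and 0 for MT486 against WT and for Δ-C60 against WT(N48). The shares against WT include WT libraries 1 and 3, whose Nelfb RNA went against the label. An unadjusted p under 0.05 was reached by 2 of the 9 for MT194 (21.1% of all genes), 2 for MT486 (8.89%), 3 for Δ-C60 (11.6%) and 4 for WT(N48) (21.0%). Against WT library 2 alone these counts were 0 for MT194 (11.6%), 1 for MT486 (5.55%) and 1 for WT(N48) (8.08%). DESeq2 called 1 in each of the 4, where it called 3.59% of all genes for MT194, 0.896% for MT486, 1.09% for Δ-C60 and 4.95% for WT(N48). The SD of log2 CPM within clone groups was 0.832 for Nr4a1, 0.677 for Dusp1 and 0.659 for Egr1, larger than the median of 0.346 over all genes. It was above that median for all 9.

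Atf3 was low in all 3 WT clone libraries, at 3.04, 3.61 and 5.48 CPM. It was at 7.58, 17.8 and 7.61 CPM in MT194 and at 14.6, 12.3 and 13.9 CPM in MT486, both without overlap with WT. The log2 fold changes were 1.44 (SE 0.49, adjusted p = 0.115) and 1.75 (SE 0.495, adjusted p = 0.274) by edgeR. With WT libraries 1 and 3 left out they were 1.59 (SE 0.78) and 1.91 (SE 0.80), and against WT(N48), where Atf3 was at 9.33, 15.7 and 4.90 CPM, they were 0.14 (SE 0.48) and 0.45 (SE 0.48). Atf3 was the gene that DESeq2 called in both comparisons with WT, with adjusted p-values of 0.0419 and 0.0357.

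Ier3 was at 220.8, 237.8 and 285.9 CPM in WT clones and at 113.9, 122.4 and 114.6 CPM in MT194 clones. The groups did not overlap, and the log2 fold change was -1.09 (SE 0.37, adjusted p = 0.117), or -1.04 (SE 0.53) with WT libraries 1 and 3 left out. Groups without overlap were found for 2 genes higher and 3 lower in MT194, against 16.6% and 16.9% of all genes. These were Egr1 and Atf3, and Ier3, Nr4a1 and Myc. In MT486 they were found for 2 higher (Egr2 and Atf3) and 1 lower (Ier3), against 12.6% and 11.6%. Myc was at 197.9, 165.5 and 159.3 CPM in WT clones and at 120.6, 129.2 and 156.3 CPM in MT194 clones. In the populations the MT194-Cre libraries lay above the WT-Cre libraries for Myc. Dusp1 was at 201.8, 128.9 and 40.2 CPM in WT(N48) and at 138.9, 217.1 and 257.3 CPM in Δ-C60 (log2 fold change 0.73, SE 0.47, adjusted p = 0.591), with the groups overlapping. Egr2 was at 10.1, 10.2 and 13.2 CPM in WT(N48) and at 7.34, 3.56 and 2.07 CPM in Δ-C60 (-1.37, SE 0.38, adjusted p = 0.225). It was the only gene of the 9 without overlap there, against 5.63% of all genes, and DESeq2 called it (adjusted p = 0.0296). Set against the WT clones, the edgeR value of Egr2 in Δ-C60 was 0.099 (SE 0.38), of the other sign. Egr2 was also higher in WT(N48) than in WT, where it was at 3.76, 4.15 and 4.21 CPM (1.47, SE 0.38, adjusted p = 0.0613 by edgeR and 0.00480 by DESeq2). With WT library 2 alone this was 1.41 (SE 0.63, adjusted p = 0.604). Set against the WT clones in place of WT(N48), Δ-C60 was called higher for Atf3 (2.38, SE 0.50, adjusted p = 0.0182) and Dusp1 (2.04, SE 0.49, adjusted p = 0.0282), 2 of the 9, where 5.38% of all genes were called and 3.69% were called higher. Against WT library 2 alone, a fit added after the data were seen, the values were 2.52 (SE 0.83, adjusted p = 0.332) and 1.96 (SE 0.77, adjusted p = 0.372), and 0.0214% of all genes were called.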

How the data were processed

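Poly(A) RNA was sequenced as single reads. Per the labels and the study's methods, the authors aligned reads to mm10 with Bowtie2, filtered them with SAMtools and made counts per gene with HTSeq; versions and the strand setting were not given in the sources used here. The deposited values are whole-number read counts. Reads in no gene (11.7% to 21.3% in populations, 9.14% to 12% in clones) were left out.

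The 20 populations and 15 clones were fitted apart in edgeR 4.0.16 (R 4.3.3) with TMM, the default expression filter and quasi-likelihood tests on all groups, with Benjamini-Hochberg adjustment over every gene tested; intervals use 10 residual degrees of freedom. A call needed an adjusted p below 0.05 and a change larger than 1 (Ad-Cre against Ad-GFP, clones) or 0.5 (others) on the log2 scale; interactions used the p alone. DESeq2 1.42.0 and other settings were alternatives. On simulated data for EV Ad-Cre against Ad-GFP (13642 genes, 200 changed), 82% of changes of 1.5 and 99% of 2.5 on the log2 scale were recovered, with 5 false calls. For clones MT194 against WT (13089 genes, 200 changed), 57% of changes of 1.5 and 97% of 2.5 were recovered, with 3 false calls.

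Same-numbered population libraries deviated together in all 45 pairs of groups (r 0.391 to 0.698), and a figure legend of the study describes 2 independent experiments, so blocked values are given; in the clones 3 of 30 pairs had r over 0.1. Other genes were named as the called ones of a list with the smallest adjusted p, its most abundant gene and the 3 nearest profiles per gene. The 9 genes, the lists and the tests were chosen with earlier results of these data known.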

Additional observations from a re-analysis of the deposited data

Results flagged for a closer look

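In 2 genes the effect of Ad-Cre differed between constructs by the interaction test. The log2 effect in WT minus that in EV was -0.98 for Ier5 (adjusted p = 0.0299) and -1.27 for Myc (adjusted p = 0.0195). Egr1 moved down in both WT replicates and up in both replicates of 3 other constructs. The mean log2 effect in WT minus that in the other construct was -0.73 for EV, -0.83 for MT194 and -0.72 for DMT. This opposite direction was not tested beyond the interaction with EV, which did not pass (adjusted p = 0.615).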

How the results depend on the processing

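The 29 calls among the 9 genes kept direction and call under DESeq2 and with its size factors, and the 28 that the replicate block could be fitted for kept theirs. Without a filter on low counts 26 were kept and 3 lost, and with the compared groups fitted alone 15 were kept and 13 lost. With the other log2 threshold 23 were kept and 4 lost. That threshold was 0.5 for calls made at 1, and 1 for calls made at 0.5. A call made at 1 could not be lost at 0.5, so only the calls made at 0.5 were put at risk. With 1 library left out, 92 of 140 calls were kept and 48 lost. None of these calls reversed. Among the 2282 values of genes that were not called, 104 changed sign. With the other wild type clones as comparator 14 of 36 did, up to a value of 1.37 in size (Egr2 in Δ-C60), with 1 library left out 75 of 1174, up to 0.452, with WT clones 1 and 3 left out 10 of 63, up to 0.198, and in the other settings 5 of 1009, up to 0.045. The fits of compared groups alone use fewer libraries; for the other changes the cause was not tested.

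The counts that follow show how the calls moved with the setting. A count with no share of all genes beside it or in the results above was not set against one. Of the 9 genes, the number called for Ad-Cre in MT194 was 0 with the groups alone and 4 at the other threshold. In MT486 it was 0 with the groups alone. WT-Cre against EV-Cre gave 8 with the replicate block. MT194-Cre against EV-Cre gave 1 with DESeq2 and 4 with the block, and MT486-Cre against EV-Cre gave 1 and 3. MT194-Cre against WT-Cre gave 3 with DESeq2, 2 with its size factors and 3 with the block, which called 10.9% of all genes. It gave 0 with no filter, with the groups alone and at the other threshold. MT486-Cre against WT-Cre gave 3 with DESeq2 and 5 with the block. DMT-Cre against WT-Cre gave 1 with the groups alone and 2 at the other threshold. The interaction of WT with EV gave 4 with DESeq2, 1 with no filter and 0 with the groups alone. With the block it gave 5, where 17.3% of all genes were called. With the block, the interactions of MT194 and MT486 with EV gave 2 and 3, and DMT against the mean of the single mutants gave 1. Replicate 2 against replicate 1 gave 0 at the other threshold. In the clones, DESeq2 gave 1 in each of the 4 comparisons. The groups alone gave 1 for MT194, MT486 and WT(N48) against WT, with no share of all genes given. Δ-C60 against the WT clones gave 2, where 5.38% of all genes were called. Each of these 4 comparisons with WT gave 0 against WT library 2 alone in fits added after the data were seen, where 1 library stands for WT. Beside these and the calls of single genes given in the text, the replicate block changed no other call, and it called none in the clones.

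Of all genes, the number called for Ad-Cre in EV was 239 with the groups alone and 1626 at the other threshold. In WT it was 26 with DESeq2, 120 with the block and 1 with the groups alone. In MT194 it was 744 with the block, 0 with the groups alone and 582 at the other threshold. In MT486 it was 358 with DESeq2, 586 with the block, 5 with the groups alone and 334 at the other threshold. In DMT it was 1215 with the block, 467 with the groups alone and 1369 at the other threshold.

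With 1 library left out in turn, the number of the 9 called ranged from 4 to 7 for Ad-Cre in EV, from 4 to 6 in DMT, from 1 to 2 in MT194 and from 2 to 3 in MT486. It ranged from 2 to 4 for WT-Cre against EV-Cre, from 0 to 0 for MT194-Cre against WT-Cre, from 1 to 3 for DMT-Cre against WT-Cre, from 0 to 1 for the interaction of WT with EV and from 0 to 1 for WT(N48) against WT clones, where Dusp1 was called without WT(N48) replicate 3 (1.71, adjusted p = 0.0270, or 1.66 and 0.304 against WT library 2 alone). Of all genes, the number called ranged from 490 to 692 in EV, from 0 to 1 in WT, from 149 to 231 in MT194, from 67 to 107 in MT486 and from 353 to 529 in DMT. Among the MYC targets it ranged from 1 to 2 in EV, and among the stress genes from 4 to 7. Changes smaller than 1.5 on the log2 scale were not simulated, so how many of that size are missed with 2 libraries a group is not known.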
